A study of Mus musculus with 11 samples.

Results

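The neurotrophin genes examined here are the ligands Bdnf and Ntf3, the tyrosine kinase receptors Ntrk2 and Ntrk3, and the receptors Ngfr and Sort1. They were listed by name, with earlier results of these data known, and make up 6 of the 53465 genes counted in FACS-sorted mPFC CRF1+ neurons, the medial prefrontal cortical cells that express the receptor for corticotropin releasing factor. Of the 6, 4 had enough counts to be tested across all genes, and none of these passed the thresholds between naïve and withdrawn mice. Of these 4, Bdnf had the lowest unadjusted p, with a mean level 38.3% lower in withdrawn mice.

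Neurotrophins are secreted growth factors that support the survival of neurons and shape synapses. BDNF, the product of Bdnf, binds the kinase receptor TrkB (Ntrk2), and neurotrophin-3 (Ntf3) binds mainly TrkC (Ntrk3). Uncleaved precursors bind instead a complex of the p75 receptor (Ngfr) and sortilin (Sort1), and sortilin also sorts the BDNF precursor inside the cell. Cortical pyramidal neurons are a main source of BDNF, and transcription of Bdnf responds to neuronal activity through calcium and the factor CREB.

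Bdnf starts from several promoters, each with its own first exon, and its best known calcium response runs through a variant cyclic AMP response element, TCACGTCA. The stretch shown lies at chr2:109692316-109692435 (GRCm38.p6, RefSeq, plus strand, written 5′ to 3′), with the element in capitals, starting 38 bases before a Bdnf transcript start.
Bdnf: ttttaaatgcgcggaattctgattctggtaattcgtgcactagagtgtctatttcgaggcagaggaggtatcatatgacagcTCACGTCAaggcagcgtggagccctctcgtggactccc
Searched on both strands before the start site, the element was in 1 of the 7 Bdnf windows and in 115 of 32851 windows of all genes (0.35%). The palindrome TGACGTCA was in 0 of the 7 and in 1.55% of all windows. A match is a description of letters, and the gene counts cannot say which promoter was used.

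All mice were adult males of the CRF1:GFP reporter line, at least 10 weeks old, in which GFP marks the cells that were sorted. The 5 withdrawn mice inhaled ethanol vapor intermittently for 5 to 6 weeks, were injected with ethanol and pyrazole, and were then abstinent for 5 to 8 days. The 6 naïve mice breathed air and were given pyrazole. Each library came from 1 mouse and 160 pg of RNA, amplified over 14 and then 12 PCR cycles, so n counts mice. For withdrawn mice 3, 4 and 5 another label reads control, and the design text gives 5 control and 6 ethanol mice. Member values without these 3 mice are given where they change a result, and the other pathway genes were not refitted without them.

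Gene counts ran from 7351567 to 22244869 per mouse, at which 3 counts equal 0.135 to 0.408 CPM, counts scaled to a fixed library total. Between 18.9% and 58.0% of tallied reads were assigned to no gene, because they lay outside genes, were ambiguous or mapped to several places. Naïve mouse 5 had the lowest of these shares and the fewest genes detected, 15585 against 22551 to 31830 in the other mice. The sorted cells carried glutamatergic markers at 2876 to 4374 summed CPM in naïve mice and 1856 to 4012 CPM in withdrawn mice. Withdrawn mice 1 and 4, at 2775 and 1856 CPM, were below every naïve mouse. GABAergic markers summed to between 73.3 and 923 CPM in naïve mice and between 28.5 and 669 CPM in withdrawn mice. Of these 6 markers, Sst had a lower mean in withdrawn mice (247 and 6.53 CPM, edgeR unadjusted p = 0.0221, adjusted p = 0.545). Its naïve values ran from 0.0677 to 699 CPM. The other 5 had log2 fold changes above 0. Fibroblast markers summed to between 0.0677 and 73.1 CPM in naïve mice and to 1318, 18.4, 672, 927 and 225 CPM in withdrawn mice 1 to 5, above every naïve mouse in 4 of 5. Microglial markers were also above every naïve mouse in 4 of 5 withdrawn mice, and astrocyte markers in 3 of 5. Their part in the results was not tested. Since RNA was pooled over sorted cells, fewer cells of a type and less RNA per cell cannot be told apart.

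Levels of different genes were compared as CPM per kilobase of merged exons. The order of the medians over 11 mice was Sort1 at 22.7, Bdnf at 18.8, Ntrk2 at 17.7, Ntrk3 at 3.61, Ntf3 at 0.289 and Ngfr at 0 CPM per kilobase. Sort1, Bdnf and Ntrk2 lay above 85.6%, 83.0% and 81.9% of 17069 tested genes. Ntrk3 lay above 50.0% and Ntf3 above 9.52%. Sort1 exceeded Bdnf within 9 of 11 mice (median 1.26-fold, exact sign-flip permutation p = 0.0127, adjusted p = 0.0159). Among the 6 naïve mice alone it did so in 4 (median 1.21-fold, exact sign-flip permutation p = 0.156, adjusted p = 0.156). Bdnf and Ntrk2 did not differ beyond their spread (median 1.07-fold, exact permutation p = 0.638), with Bdnf the higher in 5 of 6 naïve and 2 of 5 withdrawn mice. Ntrk2 exceeded Ntrk3 in all 11 mice, by a median of 4.80-fold (exact permutation p = 0.000977, the smallest possible, adjusted p = 0.00244).

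The order among the 4 abundant members depended on the length used. Another length, chosen after seeing the data, was that of the transcript with the longest coding sequence. For Ntrk3 it was 2774 bases, against 30170 bases of merged exons. With it, the median log2 ratio of Sort1 to Bdnf was -0.19, that of Bdnf to Ntrk2 -0.38 and that of Ntrk2 to Ntrk3 -0.04. On either length, Ntrk3 exceeded Ntf3 in all 11 mice, and Ntf3 exceeded Ngfr in 9 of 11. Ntrk2 and Ntrk3 have 8 and 9 coding transcripts, from 50 to 821 and from 11 to 864 codons, and the counts sum full-length and truncated receptors.

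**Figure D1:**
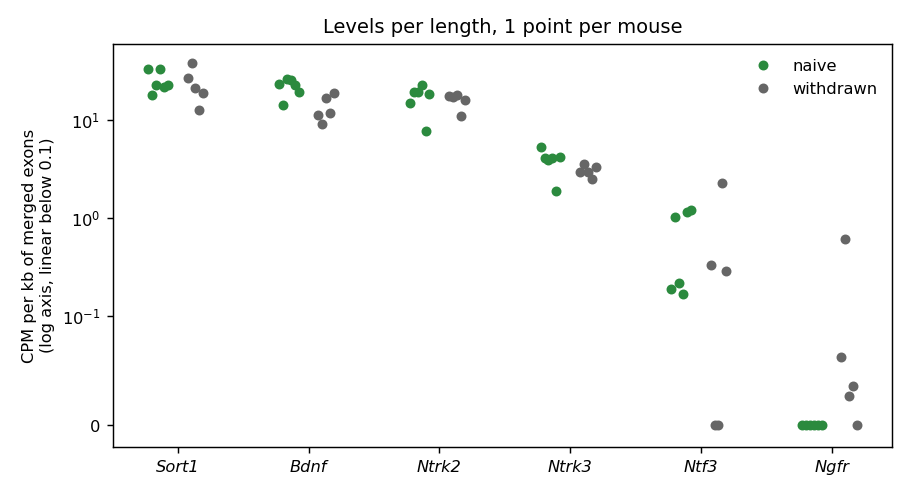
Levels of the 6 members in each mouse, in CPM per kilobase of merged exons on a log axis that turns linear near 0, with naïve and withdrawn mice in separate colors. Sort1, Bdnf and Ntrk2 overlap at the top, Ntrk3 sits lower, and Ntf3 and Ngfr are at or near 0 in several mice.

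Of the ligands, Bdnf (ENSMUSG00000048482, chr2:109674700-109727007, GRCm38, plus strand) had 145, 88.8, 165, 159, 142 and 122 CPM in naïve mice 1 to 6. Withdrawn mice 1 to 5 had 69.9, 56.6, 105, 73.9 and 117 CPM. All 5 withdrawn mice were below the naïve median of 143 CPM, and 3 were below every naïve mouse. The share of all tested genes with every withdrawn mouse below the naïve median was not computed. The groups overlapped, since naïve mouse 2 was below withdrawn mice 3 and 5. The means were 136.9 ± 27.8 CPM (SD, n = 6) and 84.5 ± 25.4 CPM (SD, n = 5).

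The log2 fold change of Bdnf was -0.70 (SE 0.22, 95% interval -1.17 to -0.23) with an unadjusted p of 0.00678 and an adjusted p of 0.358 in edgeR's quasi-likelihood test. DESeq2 gave -0.67 with an adjusted p of 0.142, and the two-sided exact permutation test of log2 CPM gave p = 0.0152, where the smallest possible is 0.00216. A gene was called when its adjusted p did not exceed 0.05 and its log2 fold change passed 0.6 in size, which held for 0 of the 4 members tested and for 1 of all 17093 genes tested (0.00585%). The groups were separate for 0 of the 4, against 0.948% of all tested genes. A positive log2 fold change was found for 0 of the 4, against 51.8% of all tested genes. An unadjusted p under 0.05 with a lower level was found for 1 of the 4, Bdnf, and for 2.22% of all tested genes. Without withdrawn mice 3, 4 and 5 the log2 fold change was -1.16 (edgeR adjusted p = 0.647). Withdrawn mouse 2, with the lowest Bdnf level, had a fibroblast marker sum of 18.4 CPM, within the naïve range. In the other withdrawn mice Bdnf was lower where that sum was higher. It ran from 69.9 CPM in mouse 1 (sum 1318 CPM) to 117 CPM in mouse 5 (sum 225 CPM). Glutamatergic marker sums were 2775 and 1856 CPM in withdrawn mice 1 and 4, below every naïve mouse, and 4012 CPM in withdrawn mouse 2. The part of either set of markers in the Bdnf values was not tested. The opposite-strand gene Gm45346 shares 896 exonic bases with Bdnf and had 0 counts in naïve and 7 in withdrawn mice.

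**Figure D2:**
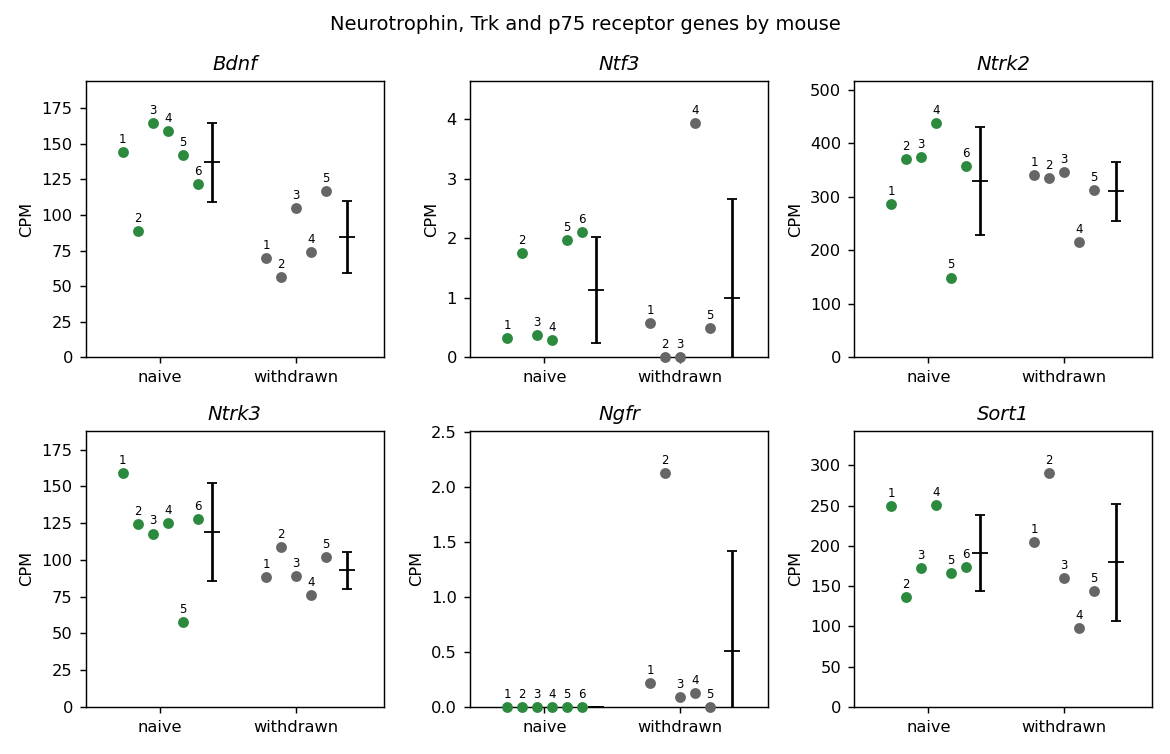
CPM of each member in each naïve (n = 6) and withdrawn (n = 5) mouse, with points for mice and the mean ± SD, error bars being drawn no lower than 0. All 5 withdrawn mice lie below the naïve median for Bdnf, Ntrk2 and Ntrk3, a count not taken over all tested genes. The groups overlap for each of these and for Sort1.

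Ntf3 (ENSMUSG00000049107, chr6:126101412-126166910, minus strand) was near the detection limit. Naïve mice 1 to 6 had 3, 32, 4, 5, 29 and 34 counts and withdrawn mice 1 to 5 had 8, 0, 0, 32 and 7. The counts overlapped, with the highest level in withdrawn mouse 4. Ntf3 did not pass the low-count filter, and the exact permutation test of log2 CPM gave p = 0.333. In an edgeR fit without the filter the log2 fold change was -0.31 (adjusted p = 0.961), and without withdrawn mice 3, 4 and 5 it was -1.94 (edgeR adjusted p = 0.866). No difference was detectable at this depth. Outside the 6, Ntf5, which encodes neurotrophin-4, another TrkB ligand, had a mean of 1.61 ± 1.25 CPM in naïve mice (SD, n = 6) and of 0.559 ± 0.447 CPM in withdrawn mice (SD, n = 5). Its log2 fold change was -1.51 (edgeR adjusted p = 0.836).

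Of the kinase receptors, Ntrk2 (ENSMUSG00000055254, chr13:58806569-59133970, plus strand) had 287, 371, 374, 437, 149 and 357 CPM in naïve mice 1 to 6 and 341, 334, 346, 215 and 313 CPM in withdrawn mice 1 to 5. All 5 withdrawn mice were below the naïve median of 364 CPM, but the groups overlapped, and naïve mouse 5 was the lowest of all. The means were 329 ± 100.5 CPM (SD, n = 6) and 310.0 ± 54.6 CPM (SD, n = 5). The log2 fold change was -0.09 (SE 0.23, 95% interval -0.59 to 0.42, edgeR adjusted p = 0.969), and the exact permutation test gave p = 0.909.

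Ntrk3 (ENSMUSG00000059146, chr7:78175959-78738012, minus strand) had 159, 125, 118, 125, 57.5 and 128 CPM in naïve mice 1 to 6 and 88.5, 109, 88.8, 76.0 and 102 CPM in withdrawn mice 1 to 5. All 5 withdrawn mice were below the naïve median, and naïve mouse 5 was again the lowest of all. The log2 fold change was -0.36 (SE 0.22, 95% interval -0.82 to 0.11, edgeR adjusted p = 0.807), and the exact permutation test gave p = 0.245. The means were 119 ± 33.3 CPM (SD, n = 6) and 92.8 ± 12.8 CPM (SD, n = 5). Without naïve mouse 5 it was -0.49 (edgeR adjusted p = 0.317). Naïve mouse 5 and withdrawn mouse 4 also had the lowest glutamatergic marker sums of their groups, 2876 and 1856 CPM. Naïve mouse 2, with a sum of 3003 CPM, had 371 CPM of Ntrk2 and 125 CPM of Ntrk3. The part of these markers in the Ntrk2 and Ntrk3 values was not tested.

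**Figure D3:**
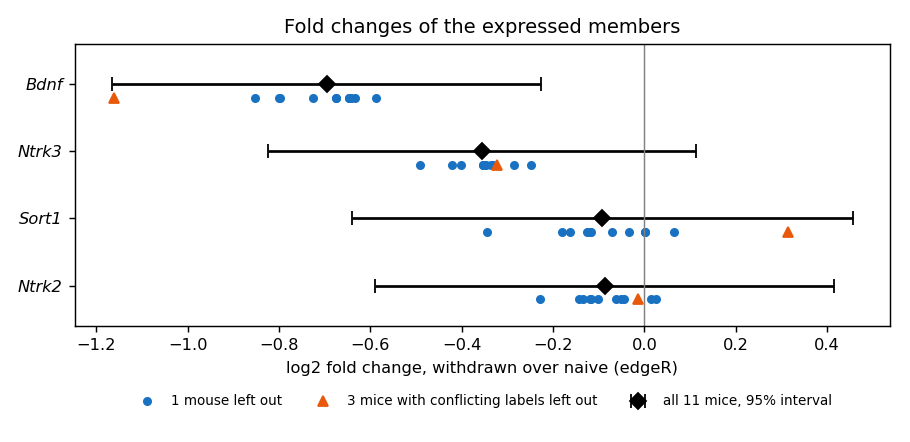
Log2 fold change of each tested member, withdrawn over naïve, with its 95% interval from edgeR (diamonds), the values with 1 mouse left out (circles) and those without the 3 mice with conflicting labels (triangles). The Bdnf interval runs from -1.17 to -0.23, and those of Ntrk2, Ntrk3 and Sort1 include 0.

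Of the receptors for uncleaved precursors, Ngfr (ENSMUSG00000000120, chr11:95568818-95587735, minus strand) had 0 counts in every naïve mouse. Withdrawn mice 1 to 5 had 3, 19, 2, 1 and 0 counts. The pooled withdrawn level of 0.376 CPM was 10.8-fold the naïve limit of 0.0348 CPM, taken as 3 counts over the group. The withdrawn level itself was given no lower limit. Withdrawn mouse 2 gave 19 of the 25 counts, and without it the ratio to that limit was 3.00-fold on 6 counts. No other withdrawn mouse had more than 3 counts. Ngfr did not pass the low-count filter, and the exact permutation test gave p = 0.0152. In an edgeR fit without the filter the adjusted p was 0.372.

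Sort1 (ENSMUSG00000068747, chr3:108284082-108361511, plus strand) had 250, 136, 172, 250, 166 and 174 CPM in naïve mice 1 to 6 and 205, 291, 160, 97.4 and 144 CPM in withdrawn mice 1 to 5. Both the highest and the lowest mouse were withdrawn. The log2 fold change was -0.09 (SE 0.26, 95% interval -0.64 to 0.46, edgeR adjusted p = 0.970), and the exact permutation test gave p = 0.597. Without withdrawn mice 3, 4 and 5 the log2 fold change was 0.31 (edgeR adjusted p = 0.860).

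Ratios within a mouse need no library normalization. The log2 ratio of Bdnf to Ntrk2 counts averaged -1.22 ± 0.67 in naïve mice (SD, n = 6) and -1.91 ± 0.49 in withdrawn mice (SD, n = 5). The withdrawn value differed by -0.69 (exact permutation p = 0.0909, adjusted over the 3 ratios p = 0.214). Without withdrawn mice 3, 4 and 5 this difference was -1.21 (exact permutation p = 0.0714, where the smallest possible is 0.0357), and without naïve mouse 5 it was -0.46. That of Ntrk2 to Ntrk3 differed by 0.27 (exact permutation p = 0.143, adjusted p = 0.214), or by 0.15 without naïve mouse 1, and that of Sort1 to Ntrk2 by -0.12 (exact permutation p = 0.690). No ratio differed beyond the spread between mice.

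With group means removed, Pearson's r between Ntrk2 and Ntrk3 was 0.79 over the 11 mice. Naïve mouse 5 was the lowest of all for both genes (log2 CPM 7.22 and 5.85), and r without it was not computed. Between Bdnf and the other tested members r ran from -0.08 to -0.02. These values share library and depth and are descriptions. The genes with the highest r among all tested were Gm12988 (0.88) and 4732416N19Rik (0.86) for Bdnf and Grin1 (0.98) and Tenm2 (0.97) for Ntrk2. For Ntrk3 they were Gm10419 and Msl1 (both 0.98), and for Sort1 Mpdu1 (0.93) and 6430573P05Rik (0.92). Their rank correlations (Spearman's rho) ran from 0.80 to 0.92, with 0.86 for Grin1 and 0.80 for Msl1.

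The rest of the pathway was read from 6 lists holding 118 genes, of which 110 were tested. None was called by edgeR, and 6 (5.45%) had an unadjusted p under 0.05, against 7.22% of all tested genes. The median log2 fold change over all 17093 tested genes was 0.02, and 8241 of them had values below 0. Among other neurotrophins and receptors all 7 tested genes had values below 0 (median -0.26). Rtn4r, the Nogo receptor that pairs with p75, had means of 169 and 114 CPM (log2 fold change -0.57, edgeR adjusted p = 0.685) and was the 1 gene of this list with an unadjusted p under 0.05. Sorcs1, a sortilin relative, had means of 34.1 and 23.7 CPM (edgeR adjusted p = 0.816). In the list of processing and release, 0 of 10 tested genes had an unadjusted p under 0.05 (median -0.14). Plat, which encodes the tissue plasminogen activator, had means of 62.4 and 80.5 CPM. Of the proprotein convertases, which cleave precursors, Pcsk2 had means of 416 and 362 CPM, and Pcsk6 of 1.47 and 0.455 CPM, the second being 0.233 CPM without withdrawn mouse 2.

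Of 46 Trk adaptor and signalling genes, 2 were higher and 1 lower at an unadjusted p under 0.05 (median 0.06). Shc1, an adaptor that docks on activated Trk receptors, had 0.967, 6.75, 4.31, 5.77, 0 and 5.31 CPM in naïve mice and 46.5, 6.27, 57.3, 69.0 and 24.0 CPM in withdrawn mice. Withdrawn mouse 2 was within the naïve range. The log2 fold change of Shc1 was 3.39 (SE 0.85, edgeR adjusted p = 0.207). DESeq2 gave an adjusted p of 0.00468, its only call among the 110 genes. Across all genes DESeq2 called 1.66% of the 21849 that it gave an adjusted p. The fibroblast marker sums were high in the same 4 withdrawn mice, and their part in the Shc1 values was not tested. Hras, a small GTPase, had means of 129 and 92.1 CPM (edgeR adjusted p = 0.530). Akt2, a kinase of the survival pathway, had means of 31.5 and 47.6 CPM (edgeR adjusted p = 0.683).

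Neither the 12 genes of p75 signalling (median 0.07) nor the 18 regulators of Bdnf transcription (9 above and 9 below 0) held one with an unadjusted p under 0.05. Rest, a repressor of neuronal genes, had means of 2.18 and 9.40 CPM (edgeR adjusted p = 0.783), the second being 6.19 CPM without withdrawn mouse 4. Camk4, a calcium-dependent kinase upstream of CREB, had means of 176 and 144 CPM, and the factor Nfatc4 of 0.847 and 3.28 CPM. Without withdrawn mouse 4 the withdrawn mean of Nfatc4 was 1.42 CPM, and without naïve mouse 2 or naïve mouse 4 its naïve mean was 0.533 or 0.527 CPM. In the p75 list the smallest p values were those of Bex3 (360.1 and 272 CPM), Rhoa (101 and 130.4 CPM) and Maged1 (827 and 714 CPM), with edgeR adjusted p from 0.697 to 0.839. Among 17 genes that TrkB signalling can induce, 14 had values below 0 (median -0.37), against 8241 of all 17093 tested genes. Of the glutamatergic markers 5 of 6 were also below 0 (median -0.16), and of the GABAergic markers 1 of 6. At an unadjusted edgeR p under 0.05, 1 of the 17 was lower (Cort) and 1 was higher (Fos). Fos, an immediate early gene, had 70.5, 78.4, 146, 116, 89.8 and 53.7 CPM in naïve mice and 204, 66.4, 168, 819 and 159 CPM in withdrawn mice. Its log2 fold change was 1.61 (SE 0.50, edgeR adjusted p = 0.349), opposite in sign to that of Bdnf, and withdrawn mouse 4 set much of the withdrawn mean, which was 283 CPM with it and 149 CPM without it. Cort, an interneuron neuropeptide, had means of 5.09 and 0.382 CPM (edgeR adjusted p = 0.590). Naïve mouse 2 alone had 20.2 CPM of Cort, and without it the naïve mean was 2.07 CPM. The GABAergic marker Sst also had a lower withdrawn mean, 6.53 against 247 CPM, and a link to Cort was not tested. Spry2, an inhibitor of receptor kinase signalling, had means of 44.7 and 23.0 CPM (edgeR adjusted p = 0.693). Naïve mouse 5 had 122 CPM of Spry2, and without it the naïve mean was 29.2 CPM.

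**Figure D4:**
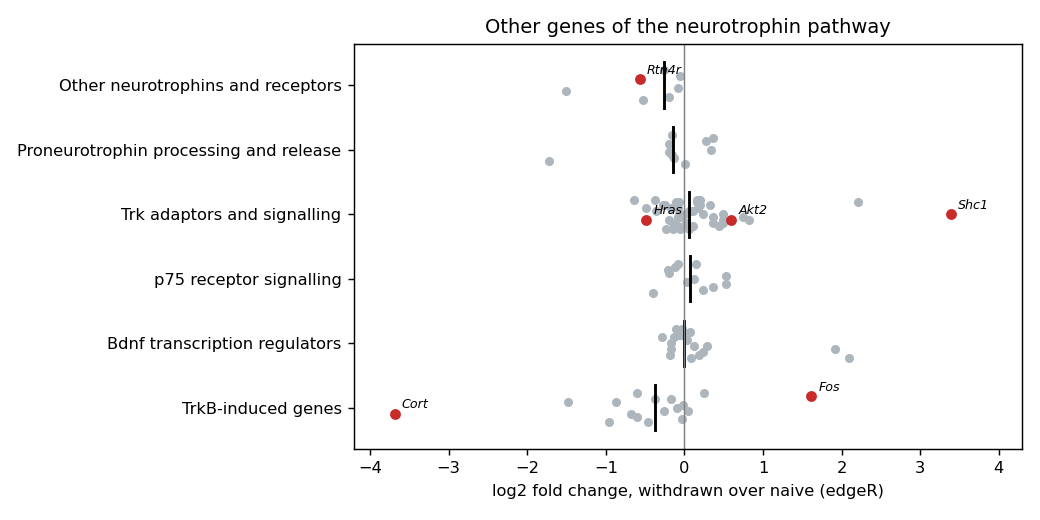
Log2 fold changes, withdrawn over naïve, of the tested genes in each of the 6 lists, with a point per gene, red and named where the unadjusted p was under 0.05, and a bar at each list's median. Most genes lie near 0, Shc1 at 3.39 and Cort at -3.69 stand farthest out, and the TrkB-induced list has its median at -0.37.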

How the data were processed

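RNA was sequenced from sorted mPFC CRF1+ neurons of 6 naïve and 5 withdrawn mice as single reads of 75 nt. The authors trimmed reads with cutadapt, mapped them with STAR to GRCm38 with Ensembl revision 91 and tallied reads on each gene with HTSeq. The deposited values are raw counts for each mouse, not normalized. Whether counting used strand is not given in the sources used here, so reads of a gene and an overlapping opposite-strand gene cannot be told apart. Symbols and coordinates came from GENCODE M21 on the same assembly.

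Groups follow the sample titles and treatments. Counts were tested with edgeR 4.0.16 in R 4.3.3 (TMM, filterByExpr with minimum count 10 and minimum total 15, quasi-likelihood test, Benjamini-Hochberg adjustment over all tested genes). DESeq2 1.42.0 and limma 3.58.1 voom were alternatives. CPM used TMM library sizes, and log2 CPM a prior count of 2. The standard error is the size of the log2 fold change divided by the square root of F. Single values were compared by two-sided exact permutation over all splits of the mice, and levels within mice by exact sign flips, with 0.5 added to counts. The scripts were tested on simulated data. Chi-square per degree of freedom between libraries was at least 25.6, so none was taken as a duplicate. Limits from counts cover counting error alone, because PCR copies are not separate molecules.

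The members and lists were chosen with earlier results of these data known. Genes named were the members, Ntf5, from each list any called gene and the 3 tested genes with the smallest p, and the 2 genes most correlated with each tested member. Some genes that this rule covers are not reported here.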

Additional observations from a re-analysis of the deposited data

Results flagged for a closer look

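Dixon's test was applied to 36 sets of values and marked 3, where chance gives about 1.8. In withdrawn mice the log2 CPM of Ntrk2 was far below the others in mouse 4 (7.75). In naïve mice the log2 CPM of Ntrk3 was far below the others in mouse 5 (5.85). The log2 of the summed microglial marker CPM plus 1 was far below the other withdrawn mice in mouse 2 (3.21).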

How the results depend on the processing

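No alternative took Bdnf, Ntrk2, Ntrk3 or Sort1 past the thresholds. Bdnf was below 0 in all 19 of its alternatives (-1.16 to -0.50) and Ntrk3 in all 19 (-0.49 to -0.25). The number of genes called, 1 in the main comparison, was 362 with DESeq2, 137 without the low-count filter and 0 without the 3 mice with conflicting labels. Leaving out 1 mouse gave 0 to 193 calls, the 193 without withdrawn mouse 2 and 6 without naïve mouse 2. Leaving out 1 mouse, the log2 fold change ran from -0.23 to 0.026 for Ntrk2, from -0.34 to 0.065 for Sort1 and, in the 4 fits that tested it, from -0.11 to 0.073 for Ntf3. Without the 3 mice, Ntf3 was -1.94, Sort1 was 0.31 and the Sort1 to Ntrk2 log2 ratio differed by 0.27, against -0.29 to 0.059 leaving out 1 mouse. Leaving out 1 mouse, the differences ran from -0.86 to -0.46 for the Bdnf to Ntrk2 ratio and from 0.15 to 0.34 for the Ntrk2 to Ntrk3 ratio. The log2 ratio of Bdnf to Ntrk2 levels was -1.54 not divided by length. With the transcript of the longest coding sequence as length, Sort1 to Bdnf was -0.19, Bdnf to Ntrk2 -0.38 and Ntrk2 to Ntrk3 -0.037. The causes were not tested.

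With the replicate number as a block, 0 genes were called, and the log2 fold changes were -0.75 for Bdnf, 0.0063 for Ntrk2, -0.28 for Ntrk3 and -0.17 for Sort1. Same-numbered mice are different animals, their deviations correlated at -0.20 to 0.18, and 1 of 5 correlated best with its own number, so they share only a number. Depth limits Ntf3 and Ngfr, where 3 counts are up to 0.408 CPM.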
